A study of Mus musculus with 6 samples.

Results

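The cluster of miR-322, miR-503, miR-351, miR-542 and miR-450 is a run of miRNA hairpins on the mouse X chromosome. Its members were taken as every row of the deposited table that comes from hairpins miR-322, miR-503, miR-351, miR-542, miR-450a or miR-450b, from either arm, and this gave 13 of the 778 mature miRNAs listed. The 13 rows are both arms of miR-322, miR-503, miR-351, miR-542 and miR-450b, the 5p arm of miR-450a and the 3p arms of its hairpins 1 and 2. Small RNA was sequenced from cultured primary mesangial cells of the mouse, which hold the capillaries of the glomerulus together, in a Control group (n = 3) and a TGF-beta1 group (n = 3). Both groups were grown in high glucose (25.5 mM) with 20% foetal bovine serum and used between passages 3 and 6. The TGF-beta1 group received 10 ng/ml of TGF-β1, a growth factor known for promoting scar formation in the kidney, for 72 h. Nothing in the labels says whether the Control cells received a vehicle or whether the 3 libraries of a group came from separate cultures, so the spread between them may be technical. The comparison asked how the miRNA profile of these cells differs after the cytokine.

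A miRNA hairpin is cut into a duplex of 2 arms, named 5p and 3p. The arm that is kept in the silencing complex finds target mRNAs mainly through its seed, bases 2 to 8, and the other arm is usually degraded. Hairpins that lie close together on 1 strand are often processed from a shared primary transcript. MiR-322, the mouse counterpart of human miR-424, and miR-503 belong to the extended miR-15/16 family, which is known for holding back the cell cycle by repressing cyclins and the phosphatase Cdc25a. MiR-351-5p has the seed of miR-125, and miR-542-3p is known as a repressor of survivin, an inhibitor of cell death.

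On the GRCm38.p6 mouse genome the 7 annotated hairpins span 6353 bp of the minus strand of chromosome X. They lie in the order Mir322 (chrX:53054255-53054349), Mir503 (chrX:53053984-53054054), Mir351 (chrX:53053255-53053353), Mir542 (chrX:53049403-53049487), Mir450-2 (chrX:53048299-53048367), Mir450-1 (chrX:53048154-53048244) and Mir450b (chrX:53047997-53048078). Mir322, Mir503 and Mir351 fall within 1095 bp and inside the annotated bounds of the long noncoding RNA gene C430049B03Rik (chrX:53053112-53057190). A gap of 3767 bp separates Mir351 from Mir542, and Mir542 and the miR-450 hairpins overlap no other annotated gene. The nearest protein-coding neighbours are Hprt and Plac1.

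The sequences that bear on the results are the mature miRNAs with enough reads to be tested, listed here from RefSeq on the GRCm38.p6 build, 5′ to 3′, with the seed in capitals. RefSeq held a mature sequence for 13 of the 13 rows. The first lines show how miR-322-5p and miR-503-5p relate to the miR-15/16 family elsewhere in the genome: bases 2 to 7 are identical, and miR-503-5p differs from the others at base 8.
miR-322-5p: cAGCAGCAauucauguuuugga
miR-503-5p: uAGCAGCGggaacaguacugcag
miR-15a-5p: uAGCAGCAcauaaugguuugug
miR-15b-5p: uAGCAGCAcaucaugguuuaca
miR-16-5p: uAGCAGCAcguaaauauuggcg

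The seed of miR-351-5p is that of both miR-125 miRNAs.
miR-351-5p: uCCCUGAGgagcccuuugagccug
miR-125a-5p: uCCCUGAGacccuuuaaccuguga
miR-125b-5p: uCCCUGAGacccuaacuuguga

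The other tested arms share their seed with no further tested member.
miR-322-3p: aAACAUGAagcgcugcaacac
miR-503-3p: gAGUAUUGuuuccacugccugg
miR-351-3p: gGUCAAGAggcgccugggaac
miR-542-5p: cUCGGGGAucaucaugucacga
miR-542-3p: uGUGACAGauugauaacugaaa
miR-450a-5p: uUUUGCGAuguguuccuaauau
miR-450b-3p: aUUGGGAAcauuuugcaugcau

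MiR-450a-1-3p (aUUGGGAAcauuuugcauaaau), which is too rare to be tested, has the same first 18 bases as miR-450b-3p. Shortened reads of these 2 arms cannot be told apart, and how the authors assigned such reads is not given in the sources used here. The mature miR-450a-5p is encoded by both Mir450-2 and Mir450-1, so its reads belong to neither hairpin alone.

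The values are in RPM, reads of a miRNA per 1000000 reads of its library, and each library held between 16478281 and 20169254 reads. In these libraries 1 read was worth 0.0496 to 0.0607 RPM. The listed rows took 79.6% ± 0.142 of the reads in Control and 72.3% ± 0.752 in TGF-beta1 (SD, n = 3 each), and on this scale the median log2 change of the 408 miRNAs tested was -0.17, against -0.065 with TMM scaling. Of the markers listed for the check of the cell type, the 5 for mesenchymal and contractile cells summed to 17369 to 18849 RPM in Control and 17949 to 21734 in TGF-beta1, most of it miR-21-5p (14793 to 18668 RPM over all libraries). Of these 5, miR-145-5p was higher after TGF-β1 (log2 change 0.92, limma adjusted p = 0.00235), miR-199a-3p was lower (-0.31, limma adjusted p = 0.0219), and the other three were not called. Of 7 epithelial markers, 5 were tested, with 3 called lower and 2 higher and a median log2 change of -1.94. MiR-200a-3p went from a mean of 12.7 to 1.23 RPM, miR-200b-3p from 6.74 to 0.601 and miR-429-3p from 3.99 to 0.290, with log2 changes of -2.64, -2.27 and -1.94 (limma adjusted p = 4.17e-05, 6.05e-05 and 4.17e-05). These markers were thus lower after TGF-β1 together with the cluster, and their part in its difference was not tested. MiR-192-5p and miR-194-5p were higher (log2 changes 0.23 and 0.54, limma adjusted p = 0.0396 and 0.0186), and miR-141-3p and miR-200c-3p stayed under 1 RPM in every library. The epithelial list summed to 315 to 329 RPM in Control and 343 to 367 in TGF-beta1, most of it miR-192-5p. The 2 endothelial markers and the 3 listed of 5 blood markers stayed under 1 RPM. The 3 muscle markers summed to 3440 to 3646 RPM in Control and 3285 to 3465 in TGF-beta1. Nearly all of this was miR-206-3p (3275 to 3634 RPM over all libraries), and miR-133a-3p did not exceed 0.182 RPM. The 2 neuronal markers summed to at most 2.40 RPM. Of these, miR-124-3p was lower after TGF-β1 (log2 change -0.50, limma adjusted p = 0.0454) and miR-9-5p was not called. The liver marker miR-122-5p was at 24.2 to 27.3 RPM in Control and 13.1 to 13.9 in TGF-beta1. It was also called lower (log2 change -0.90, limma adjusted p = 0.000763). Whether other cells added to the cluster's reads was not tested, and in such bulk samples fewer cells of a type and less RNA per cell cannot be told apart.

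Reads of the cluster were lower after TGF-β1. The 13 rows summed to 1543, 1512 and 1368 RPM in the 3 Control libraries and to 437, 389 and 402 RPM in the 3 TGF-beta1 libraries. The groups lay far apart, with means of 1474 ± 93.3 and 409 ± 24.6 RPM (SD, n = 3 each), and the sum was 3.60-fold lower after the cytokine. Of the 13 members, 10 had enough reads to be tested, and the TGF-beta1 libraries lay below every Control library for each of the 10, against 36% of all 408 tested miRNAs. By the limma test 8 members were lower at an adjusted p under 0.05, namely both arms of miR-322, miR-503, miR-351 and miR-542, where 31.9% of all tested miRNAs were called lower. Of these, 5 also had a log2 change below -1, where 7.84% of all tested miRNAs did. No member was higher at an adjusted p under 0.05, a call made for 17.4% of all tested miRNAs. Over all tested miRNAs 64.7% of the calls were thus lower, against 48.4% with median-of-ratios scaling, while every tested member kept its direction under each scaling tried. The median log2 change of the 10 was -1.17. MiR-503-3p entered the test only through its Control libraries, so its difference was partly set by the filter on low values.

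**Figure D1:**
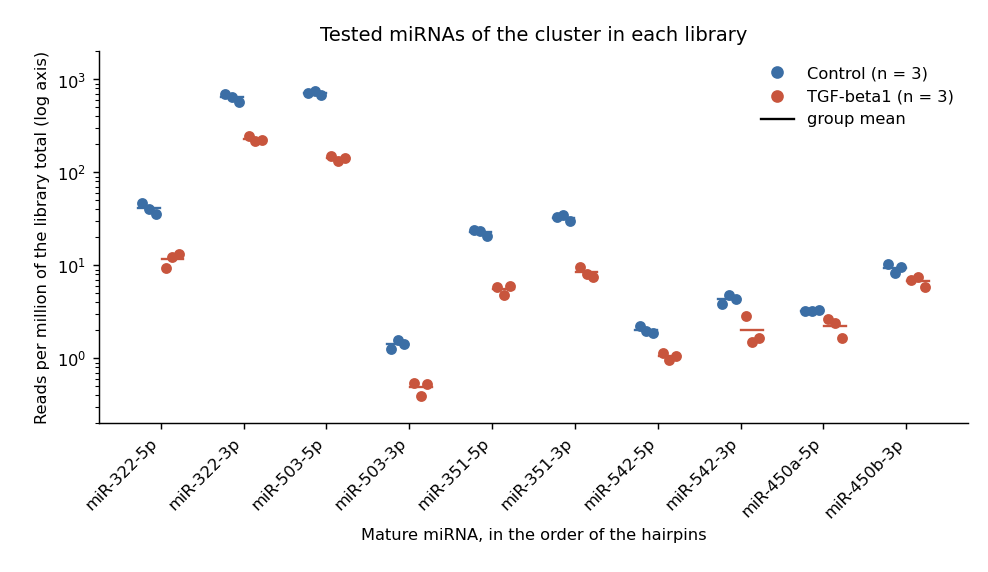
Level of the 10 tested members in each library, in RPM (reads per 1000000) on a log axis; points are libraries (3 Control, 3 TGF-beta1) and lines are group means. The TGF-beta1 points lie below the Control points for every member, from miR-503-5p at 134 to 152 against 688 to 751 RPM down to miR-503-3p at 0.391 to 0.545 against 1.27 to 1.56 RPM.

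The 5p arm of miR-503 (mmu-miR-503-5p), the miR-16 relative that differs at base 8 (chrX:53054027-53054049), was the most abundant member in Control and fell furthest. It had 714, 751 and 688 RPM in Control and 152, 134 and 143 RPM in TGF-beta1. The groups did not overlap, and the mean was 5.02-fold lower. On the log2(RPM + 1) scale, on which all changes that follow are given unless stated, it fell by 2.32 ± 0.0879 (SE, limma adjusted p = 2.67e-06). The other arm of this hairpin, miR-503-3p, had 1.27, 1.56 and 1.42 RPM in Control and 0.545, 0.391 and 0.527 in TGF-beta1, between 7 and 26 reads per library. Its mean was 2.91-fold lower, and its log2 change was -0.70 ± 0.12 (SE, limma adjusted p = 0.00214), or -1.37 with a pseudocount of 0.1, since adding 1 to such low values shrinks the change.

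The 3p arm of miR-322 (mmu-miR-322-3p, chrX:53054269-53054289) was nearly as abundant as miR-503-5p in Control and was the most abundant member after TGF-β1. It had 704, 643 and 573 RPM in Control and 246, 216 and 221 RPM in TGF-beta1, with no overlap and a mean 2.81-fold lower. Its log2 change was -1.48 ± 0.10 (SE, limma adjusted p = 4.17e-05). The 5p arm of this hairpin (mmu-miR-322-5p, chrX:53054306-53054327), which carries the miR-15/16 seed, was much rarer, at 47.4, 40.5 and 35.5 RPM in Control and 9.42, 12.4 and 13.4 RPM in TGF-beta1. It was 3.50-fold lower, and its log2 value fell by 1.73 ± 0.17 (SE, limma adjusted p = 0.000206).

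The arms of miR-351 were close to each other in level and in change. The 5p arm (mmu-miR-351-5p), with the miR-125 seed, had 24.0, 23.5 and 20.9 RPM in Control and 5.85, 4.74 and 6.03 RPM in TGF-beta1. It was 4.12-fold lower, and its log2 value fell by 1.87 ± 0.14 (SE, limma adjusted p = 4.62e-05). MiR-351-3p had 33.0, 34.4 and 29.7 RPM in Control and 9.67, 8.04 and 7.55 RPM in TGF-beta1, was 3.84-fold lower, and fell by 1.83 ± 0.14 on the log2 scale (SE, limma adjusted p = 4.62e-05).

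Beyond the gap in the cluster, levels were lower and differences smaller than for the members before it other than miR-503-3p. MiR-503-3p was rarer than each tested member past the gap. Its change of log2(RPM + 1) was smaller than that of miR-542-3p, but this order depended on the added 1. Its mean was 2.91-fold lower, against 2.16-fold for miR-542-3p, and with a pseudocount of 0.1 the log2 changes were -1.37 and -1.12. The 3p arm of miR-542 (mmu-miR-542-3p), the survivin repressor, had 3.88, 4.80 and 4.31 RPM in Control and 2.88, 1.51 and 1.64 RPM in TGF-beta1, where replicate 1 stood above the other two libraries. It was 2.16-fold lower, and its log2 value fell by 0.85 ± 0.19 (SE, limma adjusted p = 0.00777). MiR-542-5p had 2.25, 1.98 and 1.87 RPM in Control and 1.14, 0.949 and 1.05 RPM in TGF-beta1, was 1.94-fold lower, and fell by 0.57 ± 0.12 on the log2 scale (SE, limma adjusted p = 0.00641). These miRNAs rested on 17 to 80 reads per library, and DESeq2 on the recovered reads did not call miR-542-5p or miR-503-3p (adjusted p = 0.206 and 0.0634).

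The miR-450 members did not pass the test. The product of both miR-450a hairpins (mmu-miR-450a-5p) had 3.22, 3.24 and 3.29 RPM in Control and 2.68, 2.40 and 1.64 RPM in TGF-beta1. Its log2 change was -0.41 ± 0.16 (SE, limma adjusted p = 0.0632), with a 95% interval from -0.77 to -0.042. Without TGF-beta1 replicate 1 it was -0.50 and did pass (limma adjusted p = 0.0404), as it did with a pseudocount of 10 (limma adjusted p = 0.0484). MiR-450b-3p, whose reads can be mixed with those of miR-450a-1-3p, had 10.3, 8.27 and 9.53 RPM in Control and 7.04, 7.54 and 5.79 RPM in TGF-beta1. Its log2 change was -0.42 ± 0.15 (SE, limma adjusted p = 0.0516), with a 95% interval from -0.77 to -0.065. Among the 281 miRNAs with a mean of at least 50 reads, the same change had an adjusted p of 0.0430.

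The remaining 3 members were near the limit of detection. MiR-450a-1-3p had 2 to 6 reads in the Control libraries and 3 to 8 in the TGF-beta1 libraries, and miR-450b-5p had 2 to 6 and 0 to 6. MiR-450a-2-3p had 1 read in 1 Control library and 0 in all other libraries. A count of 0 allows a level of up to 0.149 to 0.182 RPM in these libraries, for counting error only, because PCR reads are not independent molecules. These 3 arms had too few reads to be tested, so neither a difference nor its absence was assessed.

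Levels by hairpin, with both arms summed, followed the same division. MiR-503 was 5.01-fold lower, miR-351 3.95-fold and miR-322 2.84-fold, while miR-542 was 2.08-fold lower, miR-450b 1.38-fold and miR-450a 1.35-fold. The ratios were thus largest for the hairpins within the bounds of C430049B03Rik, but they did not shrink step by step from the 5′ end, where miR-322 had a smaller ratio than miR-503 and miR-351. No test was run on these sums. The hairpins past the gap were also the rarest, at 3.48 to 9.59 RPM in Control against 55.2 to 719 RPM for the others. Position and abundance therefore cannot be told apart in these sums. Among single members, miR-503-3p lies before the gap at a Control mean of 1.42 RPM and was 2.91-fold lower. Tested members past the gap, at Control means of 2.03 to 9.37 RPM, were 1.38-fold to 2.16-fold lower. MiR-503-3p rests on few reads and its difference was partly set by the filter, and the part of position or abundance was not tested.

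**Figure D2:**
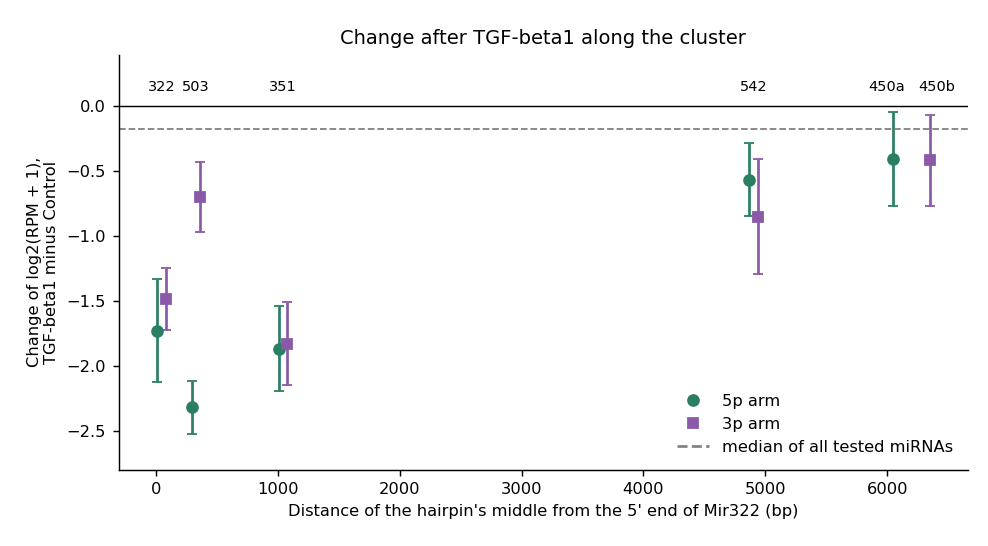
Change of log2(RPM + 1) after TGF-β1 of the 10 tested members (with 95% intervals from limma) against the distance of each hairpin's middle from the 5′ end of Mir322 in bp; circles are 5p arms, squares are 3p arms, arms are drawn slightly apart, and miR-450a-5p is placed between its 2 hairpins. Members within 1095 bp lie between -2.32 and -1.48 except miR-503-3p at -0.70, and members past the gap lie between -0.85 and -0.41, each point below the median of all tested miRNAs (-0.17, broken line). The added 1 shrinks the change of rare members. With a pseudocount of 0.1, miR-503-3p was at -1.37 and members past the gap were at -1.12 to -0.46.

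Whether members changed by different amounts was tested on differences of log2(RPM + 1) between miRNAs of the same library. The added 1 leaves the values of rare members partly dependent on scale. Against miR-322-5p, 6 of the other 9 tested members changed by a different amount (limma adjusted p under 0.05), but so did 96.1% of all miRNAs, because the reference itself fell. MiR-450a-5p, miR-450b-3p and miR-542-5p fell less than miR-322-5p, by 1.32 ± 0.28, 1.31 ± 0.28 and 1.16 ± 0.27 on the log2 scale (SE, limma adjusted p = 2.82e-06, 4.47e-06 and 2.10e-05). With a pseudocount of 0.1 the differences were 1.26, 1.34 and 0.91, and each still passed (limma adjusted p = 0.000882, 9.98e-05 and 0.0155). MiR-542-3p and miR-503-3p also differed from it (limma adjusted p = 0.00185 and 0.000108), but with a pseudocount of 0.1 neither did (limma adjusted p = 0.0628 and 0.296). MiR-503-3p is counted here although it entered the test only through its Control libraries. MiR-503-5p fell by 0.59 ± 0.24 more than miR-322-5p (SE, limma adjusted p = 0.0166), but this call was lost with the replicate number as a block (adjusted p = 0.101), with a pseudocount of 0.1 (adjusted p = 0.0510) and without Control replicate 2 or 3 or TGF-beta1 replicate 2 or 3 (limma adjusted p = 0.0831 to 0.0928). For miR-351-3p and miR-351-5p no difference from miR-322-5p was detected, with 95% intervals from -0.64 to 0.44 and from -0.68 to 0.41. The scatter of the reference enters every ratio, and its levels rested on 190 to 781 reads per library. Limma pools variance over miRNAs as if they were independent, but here all of them shared this scatter. The adjusted p-values and intervals of these ratios therefore overstate the certainty.

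The main change in make-up was between the pair of abundant products. MiR-503-5p took 46.3%, 49.6% and 50.3% of the cluster's reads in Control and 34.7%, 34.5% and 35.5% in TGF-beta1. MiR-322-3p took 45.6%, 42.5% and 41.9% in Control and 56.2%, 55.6% and 55.0% in TGF-beta1. Neither share overlapped between the groups, and they moved by -13.8 and 12.3 percentage points. In reads there were thus 1.01, 1.17 and 1.20 reads of miR-503-5p per read of miR-322-3p in Control, and 0.618, 0.620 and 0.645 in TGF-beta1. Relative to miR-322-3p, a reference chosen after seeing the data, 8 of the other 9 tested members changed by a different amount (limma adjusted p under 0.05), as did 96.3% of all miRNAs, of which most changed upward (93.9% of all). Of these 8 calls, those of miR-351-3p and miR-351-5p were lost with the replicate block (adjusted p = 0.0639 and 0.0527) and each in 4 of the 6 fits that left out a library, and those of miR-542-3p and miR-503-3p were lost with a pseudocount of 0.1 (adjusted p = 0.193 and 0.713). MiR-503-3p again entered only through its Control libraries. MiR-503-5p fell by 0.84 ± 0.12 more on the log2 scale than miR-322-3p (SE, limma adjusted p = 2.77e-05). Leaving out each library gave -0.91 to -0.79. The direction of this difference was the same with pseudocounts of 0.1 and 10 (-0.84 and -0.80). A fall relative to miR-322-3p was called for 2.46% of all miRNAs. MiR-322-3p itself ranked 17 among the 408 tested miRNAs by size of fall, so few could fall further. The reference was picked from these same data, and its scatter was shared by all ratios. Neither the p-value nor the 2.46% is therefore independent support.

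The shares of the intermediate members differed little between the groups, and the mean shares of the rarer members other than miR-450a-2-3p were higher after TGF-β1. A gain is usual against a sum that fell, and relative to miR-322-5p alone 95.1% of all miRNAs were called higher. Overlap between the groups in such shares was not counted over all miRNAs, so its absence below is not read as a result about the members. MiR-322-5p had 2.78% ± 0.255 of the cluster's reads in Control and 2.89% ± 0.640 in TGF-beta1 (SD, n = 3 each), and miR-351-3p had 2.19% ± 0.0716 and 2.05% ± 0.169 (SD, n = 3 each), with overlapping libraries in both cases. MiR-351-5p went from 1.55% ± 0.0135 to 1.35% ± 0.140 without overlap (SD, n = 3 each). MiR-450b-3p went from 0.637% ± 0.0795 to 1.66% ± 0.252 and miR-450a-5p from 0.221% ± 0.0171 to 0.546% ± 0.120 (SD, n = 3 each), again without overlap. The shares of miR-542-3p, miR-542-5p and miR-450a-1-3p were also higher without overlap, at means of 0.295% and 0.484%, 0.138% and 0.256%, and 0.0147% and 0.0831%, the last on 2 to 8 reads per library. Those of miR-503-3p (0.0965% and 0.119%) and miR-450b-5p (0.0149% and 0.0434%) overlapped, and miR-450a-2-3p had its only read in Control. Shares of 1 sum move against each other by construction, and no test was run on them.

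**Figure D3:**
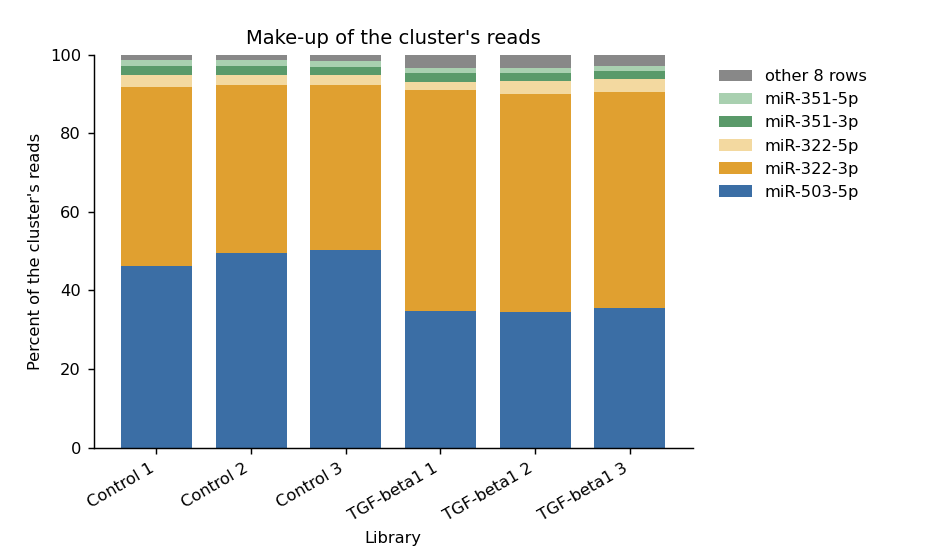
Share of the cluster's reads taken by each member in every library, in percent; the grey segment is the sum of the other 8 rows. The blue segment (miR-503-5p) is 46.3% to 50.3% of the bar in Control and 34.5% to 35.5% in TGF-beta1, and the orange segment (miR-322-3p) is 41.9% to 45.6% and 55.0% to 56.2%.

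The arms of miR-503 and miR-322 were used very unequally. In miR-503 the 5p arm held nearly all reads, with 0.00179, 0.00208 and 0.00206 reads of 3p per read of 5p in Control. In miR-322 the 3p arm dominated instead, with 14.8, 15.9 and 16.2 reads of 3p per read of 5p in Control. In miR-351 and miR-542 the 3p arm was ahead by less, at 1.38 to 1.46 and 1.73 to 2.42 in Control. Over the 84 hairpins of the table whose arms each averaged 1 RPM or more, the 3p arm was the more abundant in 50% of them. The arm that shares bases 2 to 7 with the miR-15/16 family was therefore the major product of miR-503 and the minor product of miR-322 in these libraries.

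A change in the ratio of the arms was not shown for the hairpins of the cluster that could be tested at this level. The ratio of 3p to 5p was 26.1, 17.5 and 16.5 in the TGF-beta1 libraries for miR-322, all above Control, but replicate 1 stood apart and the log2 change was 0.25 ± 0.26 (SE, limma adjusted p = 0.502), with a 95% interval from -0.30 to 0.79. For miR-351 the log2 change was 0.038 with an interval from -0.46 to 0.53, and for miR-542 it was -0.29 with an interval from -0.81 to 0.24 (limma adjusted p = 0.872 and 0.401). By the same limma test, 33.3% of the 84 hairpins had a changed arm ratio, and at an unadjusted p under 0.05 none of the 3 hairpins did. With the minimum at 0.2 RPM miR-503 could be tested as well, and its 3p arm gained on the 5p arm by 1.62 ± 0.17 on the log2 scale (SE, limma adjusted p = 2.74e-05, with 25.7% of 140 hairpins called). Much of this came from the pseudocount, because with 0.1 in place of 1, a setting chosen after seeing the data, the gain was 0.95 ± 0.23 (SE) and did not pass (limma adjusted p = 0.0979, with 0.714% of the 140 hairpins called). The ratios themselves were 0.00360, 0.00291 and 0.00369 in TGF-beta1, each above Control, and rest on 7 to 26 reads of the 3p arm per library.

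**Figure D4:**
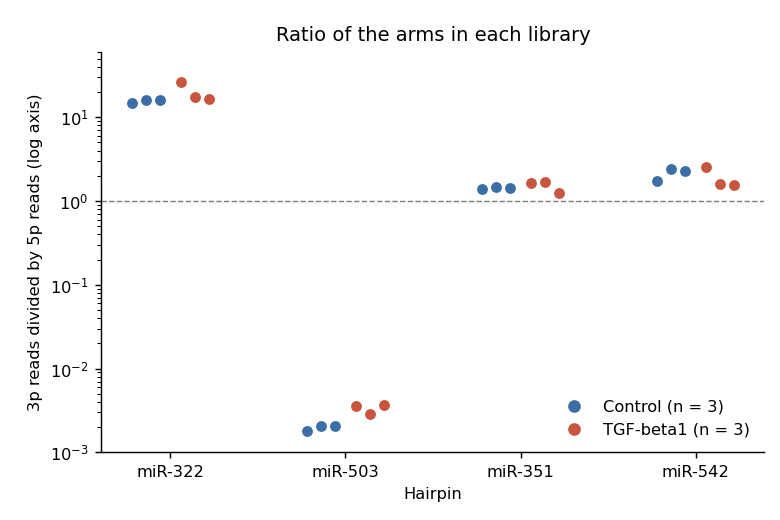
Reads of the 3p arm divided by reads of the 5p arm in each library, on a log axis, for the 4 hairpins with reads of both arms in every library and a tested 3p and 5p arm; the broken line marks equal use. MiR-322 lies between 14.8 and 26.1, miR-503 between 0.00179 and 0.00369, and miR-351 and miR-542 between 1.25 and 2.52.

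MiRNAs with related seeds elsewhere in the genome were compared with the members. Of 5 relatives of miR-322-5p and miR-503-5p, 3 were tested and all 3 were lower, namely miR-15a-5p, miR-15b-5p and miR-16-5p, where 31.9% of all tested miRNAs were called lower. MiR-16-5p, the most abundant, had 189, 193 and 179 RPM in Control and 100, 99.6 and 136 RPM in TGF-beta1, and its log2 value changed by -0.75 ± 0.14 (SE, limma adjusted p = 0.00346). MiR-15a-5p and miR-15b-5p changed by -0.99 and -0.80 on the log2 scale (limma adjusted p = 0.00348 and 0.00412). MiR-195-5p and miR-497-5p stayed at or below 0.702 RPM. Under 4 other scalings all 3 were still called lower (limma adjusted p of 0.00300 to 0.0102), where 22.3% to 25.7% of all tested miRNAs were.

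The cluster members fell further than these relatives. Within a library, miR-16-5p was higher relative to miR-503-5p by 1.57 ± 0.13 on the log2 scale and relative to miR-322-5p by 0.98 ± 0.25 (SE, limma adjusted p = 2.42e-06 and 0.000125), and nearly all miRNAs were (98.3% and 96.1% called in either direction). The scatter of each reference was again shared by all miRNAs, so these adjusted p-values may overstate the certainty. The reads summed over the 7 named miRNAs of this family were 1025, 1048 and 960 RPM in Control and 294, 280 and 332 RPM in TGF-beta1. The cluster supplied 74.3%, 75.5% and 75.4% of them in Control and 54.9%, 52.4% and 47.1% in TGF-beta1, without overlap. A mature sequence was held for 581 of the 778 rows, and for neither miR-195-5p nor miR-497-5p. Other rows with bases 2 to 7 of this family may thus be missing from the sum.

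The miR-125 relatives of miR-351-5p behaved differently from it. MiR-125b-5p had 836, 943 and 780 RPM in Control and 1038, 1152 and 1374 RPM in TGF-beta1. The groups did not overlap, and it rose by 0.47 ± 0.12 on the log2 scale (SE, limma adjusted p = 0.0126). MiR-125a-5p differed by -0.39 ± 0.12 on the log2 scale (SE, limma adjusted p = 0.0292), which did not pass with TMM, median-of-ratios or upper-quartile scaling or with scaling to the listed rows (adjusted p = 0.0813, 0.150, 0.0655 and 0.142). Relative to miR-351-5p within a library, miR-125b-5p was higher by 2.34 ± 0.13 and miR-125a-5p by 1.47 ± 0.12 on the log2 scale (SE, limma adjusted p = 1.55e-09 and 2.92e-08), with 97.1% of all miRNAs called in either direction. Here too the scatter of the reference was shared by all miRNAs, so these adjusted p-values may overstate the certainty. MiR-351-5p supplied 1.34% ± 0.101 of the reads of the 3 named miRNAs with this seed in Control and 0.304% ± 0.0307 in TGF-beta1 (SD, n = 3 each). The sum of the 3 miRNAs, 1703 ± 179 and 1824 ± 196 RPM (SD, n = 3 each), thus hardly contained it.

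**Figure D5:**
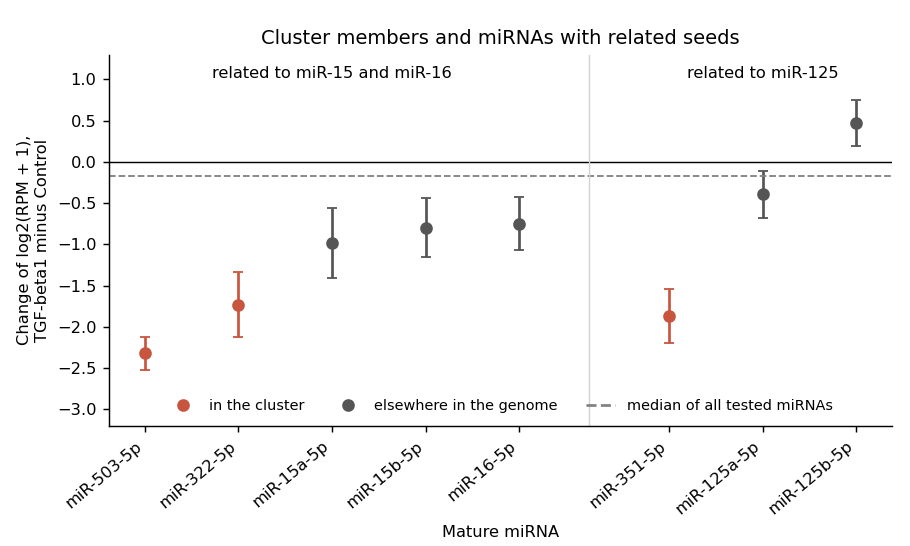
Change of log2(RPM + 1) after TGF-β1, with 95% intervals from limma, of cluster members (red) and of miRNAs with related seeds elsewhere in the genome (grey); the broken line is the median of all tested miRNAs (-0.17). MiR-503-5p and miR-322-5p lie at -2.32 and -1.73 against -0.99 to -0.75 for the miR-15/16 miRNAs, and miR-351-5p lies at -1.87 against -0.39 and 0.47 for the miR-125 miRNAs.

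The miRNAs outside the cluster whose profile over the 6 libraries was most like that of the cluster sum were sought among 174 miRNAs with a mean of at least 10 RPM. Likeness was the root mean square difference between profiles of log2(RPM + 1), each centred on its own mean. MiR-101a-3p was nearest, at 0.115, with 489, 450 and 431 RPM in Control and 148, 110 and 106 RPM in TGF-beta1. It was followed by miR-26a-5p at 0.191, miR-652-3p at 0.282, miR-130a-3p at 0.290 and miR-3099-3p at 0.298. Among the tested members, miR-351-3p and miR-351-5p lay nearest to the sum, at 0.0648 and 0.0719. All other tested members lay farther from it than miR-101a-3p did. MiR-322-3p, miR-322-5p and miR-503-5p were at 0.185, 0.208 and 0.241, and miR-542-3p, miR-503-3p and miR-542-5p at 0.528, 0.579 and 0.641. MiR-450b-3p and miR-450a-5p were farthest, at 0.731 and 0.734. The minimum of 10 RPM was not set for members, and the added 1 shrinks the profiles of rare ones.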

How the data were processed

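Per the labels and the study's methods, small RNA of 3 Control and 3 TGF-beta1 samples was sequenced on an Illumina instrument, and the authors removed adaptors and low-quality or short reads and compared the rest with known miRNAs of miRBase using Bowtie. The deposited values, named TPM in the file header, are RPM without length scaling, and the library total they are scaled by exceeds what the rows add up to. How the authors counted reads matching several miRNAs is not given in the sources used here. Each library's total was recovered as an integer that turns its values into whole numbers of reads (1 or 2 integers did so in a library), with 100% of values within 0.002 reads of a whole number. Members, lists, tests and alternatives were chosen with earlier results of these data known. The miRNAs named are all members, 7 seed relatives and the 5 nearest profiles; miRNAs of the cell type lists were fixed for the check of the label.

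Group was the one term of the main model, fitted to log2(RPM + 1) by limma 3.58.1 under R 4.3.3 with the prior variance allowed to follow mean expression. It covered the 408 miRNAs that edgeR's filterByExpr (version 4.0.16, minimum count 10) retained. P-values were two-sided with Benjamini-Hochberg adjustment over all miRNAs, or over all hairpins for arm ratios. Fits were tested on simulated data. Count tests on the recovered reads were alternatives (DESeq2 1.42.0, and edgeR with TMM, which called 186 miRNAs at an adjusted p under 0.05). Sequences, positions and neighbouring genes came from RefSeq on GRCm38.p6, matched by name.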

Additional observations from a re-analysis of the deposited data

How the results depend on the processing

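The counts of members called lower were 8, and 5 with a log2 change below -1. They ranged from 6 to 9 and from 5 to 7 under other scalings, pseudocounts of 0.1 and 10, other filters, edgeR and DESeq2 on recovered reads (6 with DESeq2). Of all tested miRNAs, 17.6% to 39.1% and 3.68% to 13.2% were called in those settings. With each library left out the counts were 8 to 9 and 5 to 6, against 23.3% to 33.4% and 6.16% to 9.72% of all tested miRNAs. Libraries sharing a replicate number did not deviate together (correlations of -0.084, -0.21 and -0.34). With the replicate block the counts were 8 and 5 (28.2% and 7.84% of all miRNAs), with 5 members differing from miR-322-5p (91.9% of all) and 0 arm ratios of the cluster called (11.9% of all hairpins). The log2 ratio of the cluster sum was -1.85, and became -1.69 (TMM), -1.63 (median of ratios), -1.71 (upper quartile) or -1.71 (sum of the listed rows) when libraries were rescaled, and -1.90 to -1.81 with each library left out. The shift in the shares of miR-503-5p and miR-322-3p was -15.1 to -13.0 and 11.6 to 13.4 percentage points with each library left out. Members differing from miR-322-5p numbered 6 (96.1% of all miRNAs), against 3 with a pseudocount of 0.1 (89.7% of all). Among miRNAs with a mean of at least 50 reads, where fewer members were tested, they numbered 3 (95% of all). With each library left out they numbered 5 to 6 (93.3% to 95.5% of all). Against miR-322-3p, a reference chosen after seeing the data, 8 members differed (96.3% of all miRNAs). There miR-351-3p and miR-351-5p, at -0.35 and -0.38, reversed to 0.25 and 0.37 with a pseudocount of 10 (adjusted p = 0.0738 and 0.00639). MiR-351-3p lost its call with the block and without Control replicate 2 or 3 or TGF-beta1 replicate 2 or 3, and miR-351-5p with the block and without Control replicate 2 or 3 or TGF-beta1 replicate 1 or 2 (adjusted p = 0.0527 to 0.135). Cluster hairpins with a changed arm ratio numbered 0 (33.3% of all hairpins), against 1 when the arms' minimum was 0.2 RPM (25.7% of all). With each library left out they numbered 0 to 1 (2.35% to 29.1% of all). The 1 was miR-503, which entered only through the lower minimum or without a TGF-beta1 library. The cause of these differences was not tested. Members under 1 RPM are limited by their few reads.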
